A study of Danio rerio with 12 samples.

Results

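The genes described here are those that build the ribosome in the nucleolus. A list of 44 zebrafish genes was matched by exact symbol to both deposited expression tables, and 42 were found among 14850 genes, while rrp1 and polr1a were not analysed here. The 42 genes fall into 4 proteins of box C/D small nucleolar ribonucleoproteins (snoRNPs), 4 of H/ACA snoRNPs, 14 small subunit and 14 large subunit assembly factors, 3 RNA polymerase I subunits and 3 nucleolar chaperones or regulators.

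Ribosome production starts when RNA polymerase I transcribes the ribosomal RNA precursor in the nucleolus. The snoRNPs then guide its cleavage, ribose methylation and pseudouridylation, while assembly factors fold it and load ribosomal proteins to make the small and large subunits. The pathway is known for its high demand in growing embryos, where maternal ribosomes are gradually supplemented by zygotic ones.

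RNA-seq was carried out on pools of whole zebrafish embryos at 12hpf (hours post fertilization, segmentation) and 6hpf (gastrulation), 3 TALE KD and 3 control libraries at each stage. TALE KD embryos, of the Ekwill strain like the controls, carried injected morpholinos against the TALE homeodomain transcription factors prep1.1 (listed as pknox1.1), pbx2 and pbx4. Control embryos of each stage received water with the dye phenol red. The replicates are described as biological. The design therefore gives the change between stages in each treatment, the effect of TALE KD at each stage, and the difference of that effect between stages. A morpholino blocks its target RNA rather than deleting the gene, the control injection held no morpholino, and a pool of whole embryos averages all tissues, so that fewer cells of a type and less RNA per cell cannot be told apart.

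Each library held 19783326 to 40924982 estimated counts at 12hpf and 11884805 to 15031243 at 6hpf. The lowest count of any of the 42 genes in any library was 599, and all 42 passed the filter of a mean of at least 10 counts in every comparison. The stages carried their markers, with 6 of 7 tested segmentation markers higher and 9 of 9 gastrula markers lower at 12hpf in control embryos. By the same rule for calls, given below, 32.8% of all genes were higher and 26.0% lower. Of the targeted genes, pbx2 RNA was higher in TALE KD at both stages, with 237.2 to 260.5 CPM in TALE KD at 12hpf, against 84.54 to 91.54 CPM in control at 12hpf, and 164.7 to 179.9 CPM in TALE KD at 6hpf, against 102.4 to 107.5 CPM in control at 6hpf (edgeR p-adj 2.06e-05 and 0.00859). The 12hpf call of pbx2 was kept in each removal of 1 library, and the 6hpf call was lost in each (edgeR p-adj 0.0342 to 0.0724). The other targets were not called, with log2 fold-changes in TALE KD over control of 0.21 at 12hpf and 0.05 at 6hpf for pbx4 (edgeR p-adj 0.172 and 0.998), and of 0.21 and 0.19 for pknox1.1 (edgeR p-adj 0.0363 and 0.872). RNA levels do not measure the block of translation by a morpholino. Levels below are CPM, the counts of a gene over the total of its library on the usual common scale, adjusted with TMM factors over the 12 libraries and are compared between libraries, not between genes. A gene is called changed at an edgeR p-adj of at most 0.01 and at least 1.5-fold, with adjustment over all genes tested.

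The summed RNA of the 42 ribosome biogenesis genes made up a smaller share of the counts at 12hpf than at 6hpf, in TALE KD and control embryos alike. The summed level of the 42 genes was 14180, 14360 and 13290 CPM in TALE KD at 12hpf, against 18380, 18190 and 18900 CPM in TALE KD at 6hpf. In control embryos it was 14380, 14460 and 13740 CPM at 12hpf, against 18360, 18870 and 19700 CPM at 6hpf. The stages did not overlap in either treatment. With TMM factors, the 12hpf mean was 0.754 times the 6hpf mean in TALE KD and 0.748 times in control. The fall was smaller in plain shares of each library's counts, without TMM factors. There the genes took 1.46 to 1.54% of the counts at 12hpf over both treatments, against 1.70 to 1.80% at 6hpf. The abundant nucleolar proteins ncl and npm1a together held 34.3% of the summed level in TALE KD at 12hpf and 41.1% in TALE KD at 6hpf, with 33.5% and 40.6% at the same stages in control. These 2 genes weigh heavily in the sum and held less of it at 12hpf. The sum therefore does not give the change of the typical gene, and a sum without them is not given here.

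**Figure D1:**
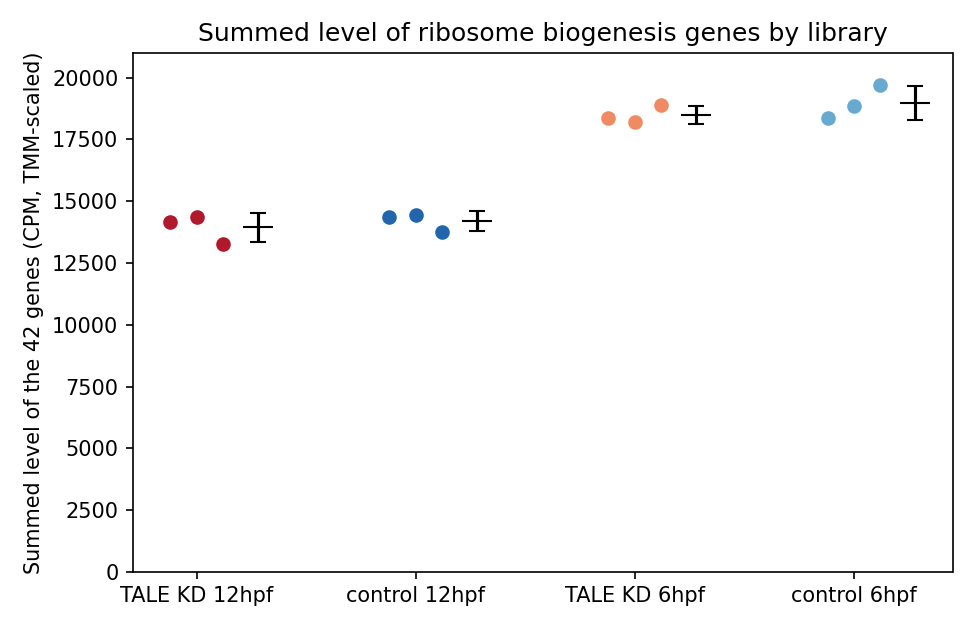
Summed level of the 42 ribosome biogenesis genes in each library (y axis, CPM with TMM factors), by group on the x axis, with points for libraries and black marks for the mean and its SD (n = 3). All 6 libraries at 12hpf lie between 13290 and 14460 CPM, below the 18190 to 19700 CPM of the 6 libraries at 6hpf.

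By gene, the drop was shallow and uneven. In TALE KD embryos 8 of the 42 genes were called lower at 12hpf and 2 higher, where 25.1% of all 11450 genes tested were called lower and 31.5% higher. In control embryos 8 were also called lower and 2 higher, where 26.0% of all genes were called lower and 32.8% higher. With no minimum fold-change, 21 genes were lower and 5 higher in TALE KD at the same p-adj, which is 50% and 11.9% of the genes, where all genes gave 32.5% and 36.9%. In control the counts were 22 lower and 9 higher, which is 52.4% and 21.4%, where all genes gave 33.1% and 38.0%. The 3 libraries at 12hpf lay below all 3 at 6hpf for 23 genes in TALE KD and for 23 in control, where the background was 36.1% and 36.5%. They lay above all 3 at 6hpf for 9 genes in TALE KD and for 10 in control, where the background was 43.4% and 44.3%.

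The median log2 fold-change of the 42 genes, 12hpf over 6hpf, was -0.26 in TALE KD and -0.29 in control, where the median of all genes tested was 0.09 in each. These values depend on the scale. On library totals alone, without TMM factors, the median of all genes moved to 0.32 in TALE KD and 0.33 in control, and that of the 42 genes moved to -0.02 and -0.05. Relative to the median of all genes the difference stayed at -0.34 in TALE KD on both scales, and at -0.38 with TMM and -0.37 on totals in control. In TALE KD 32 of the 42 genes fell below the median of all genes, and 31 did in control. The split of calls turned with the scale, from 2 higher and 8 lower in each treatment to 4 higher and 1 lower in TALE KD, and to 6 higher and 1 lower in control on library totals. Of the genes called lower, only nhp2 kept that call on totals, in both treatments, while bysl and wdr12 were called higher on both scales in both treatments.

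**Figure D2:**
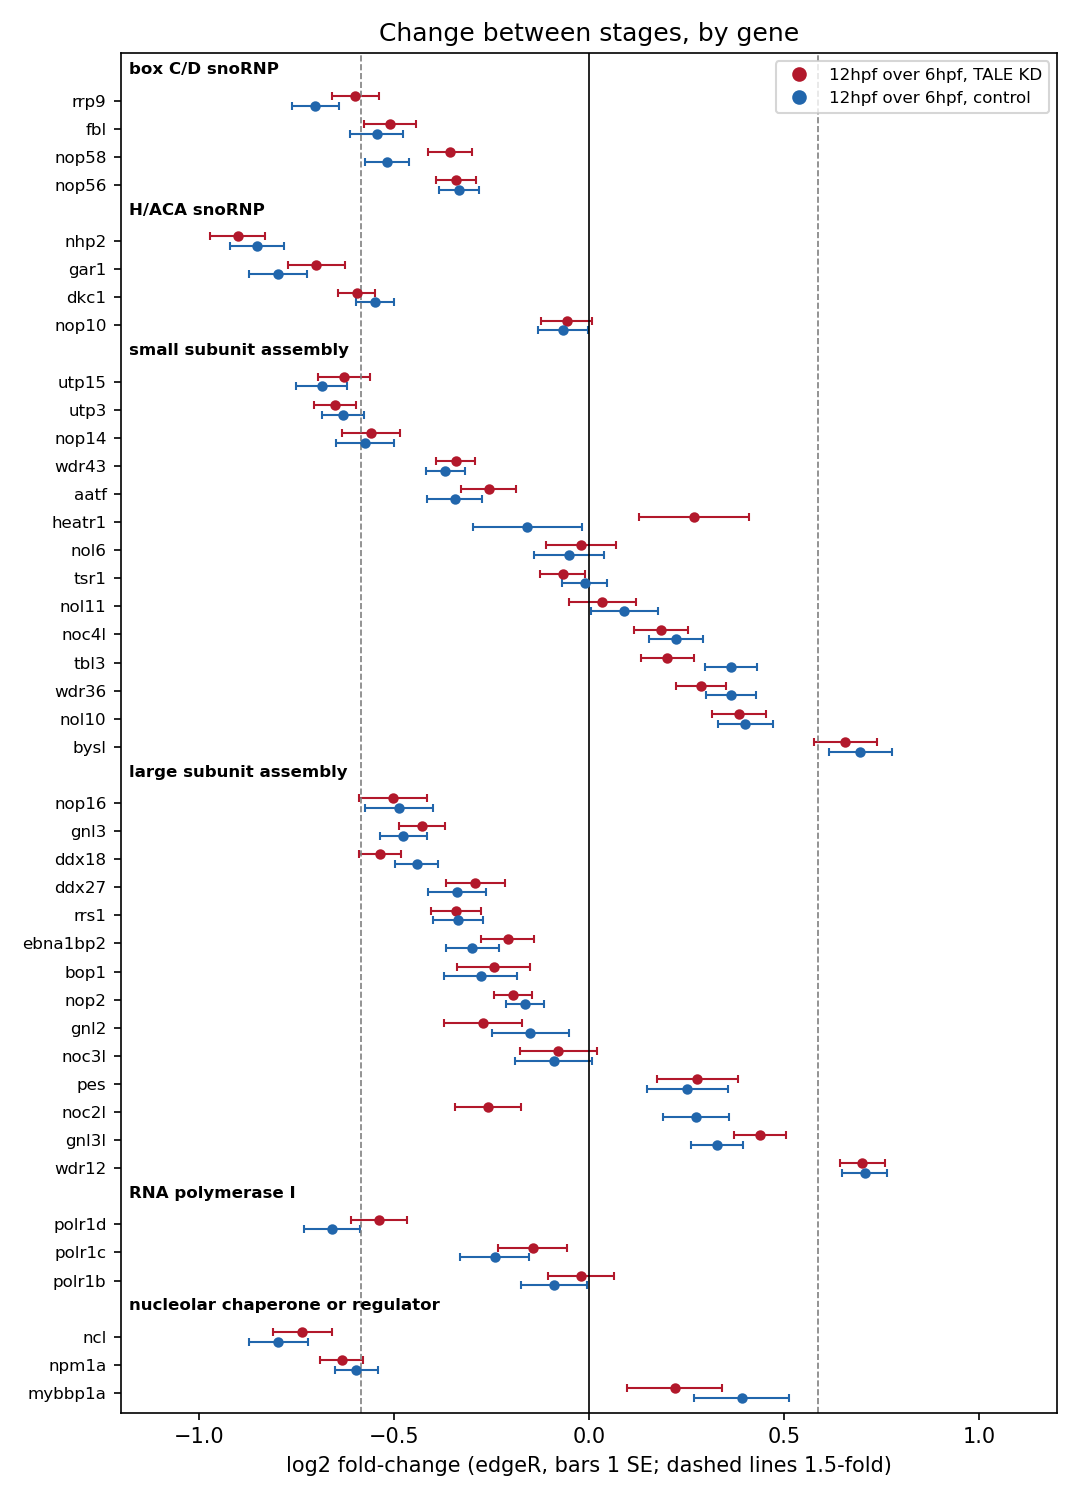
log2 fold-change of each gene between stages (x axis, 12hpf over 6hpf with TMM factors, bars 1 SE), with genes on the y axis grouped by role, TALE KD in red and control in blue. The points of all snoRNP proteins lie left of 0 and the assembly factors spread to both sides. On this scale noc2l and heatr1 are the genes whose colours lie on opposite sides of 0.

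With TMM factors all 4 H/ACA and all 4 box C/D snoRNP proteins had log2 fold-changes below 0 in both treatments. The 4 H/ACA proteins form the machine that converts uridine to pseudouridine in ribosomal RNA. NHP2, the RNA-binding core protein encoded by nhp2, was at 193.5, 183.4 and 190.4 CPM in TALE KD at 12hpf, against 345.4, 327 and 362.7 CPM in TALE KD at 6hpf. In control nhp2 had 204.7, 209.1 and 195.3 CPM at 12hpf, against 383.5, 325.3 and 368.2 CPM at 6hpf. The stages were far apart in both treatments, with log2 fold-changes of -0.90 ± 0.07 in TALE KD and -0.85 ± 0.07 in control (SE, edgeR p-adj 4.62e-08 and 7.46e-08), which placed nhp2 at the 18.9 and 21.3 percentiles of all genes. For gar1, another core protein, the levels were 293.7, 275.4 and 250.1 CPM in TALE KD at 12hpf, against 438.3, 411.7 and 450 CPM in TALE KD at 6hpf. In control gar1 had 258.3, 260.3 and 270.6 CPM at 12hpf, against 470.5, 410.7 and 462.6 CPM at 6hpf. It was called lower in both treatments (log2 fold-change -0.70 and -0.80). The pseudouridine synthase dkc1 had -0.60 in TALE KD, just past the fold threshold, and -0.55 in control, just short of it, with p-adj of 6.48e-08 and 1.38e-07 by edgeR. Only nop10, the smallest of the H/ACA core proteins, kept overlapping levels, with 92.97 to 95.31 CPM in TALE KD at 12hpf and 94.07 to 99.08 CPM in TALE KD at 6hpf, and on library totals its sign turned positive in both treatments.

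The box C/D proteins carry out ribose methylation. The methyltransferase fibrillarin (fbl) had 767.4, 802.4 and 711.9 CPM in TALE KD at 12hpf, against 1055, 1031 and 1093 CPM in TALE KD at 6hpf. Fibrillarin levels in control were 795.1, 783 and 709 CPM at 12hpf, against 1077, 1034 and 1159 CPM at 6hpf. Its stage change was -0.51 in TALE KD and -0.55 in control on the log2 scale, without overlap of the stages and below 1.5-fold. The scaffold proteins nop56 (-0.34 and -0.33) and nop58 (-0.36 and -0.52) were lower in TALE KD and control with p-adj under the threshold by edgeR, again below 1.5-fold. The specialised member rrp9, which marks the snoRNP needed for early precursor cleavage, was called lower in both (-0.60 and -0.70). All 4 box C/D proteins stayed below 0 on library totals too, with medians of -0.20 in TALE KD and -0.29 in control, although none was then called.

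Among the small subunit assembly factors, which act in the large early precursor particle called the processome, 2 genes were called lower and 1 higher in each treatment. The gene utp3 had 102.8, 103.6 and 107.5 CPM in TALE KD at 12hpf, against 162, 159.5 and 160.7 CPM in TALE KD at 6hpf. In control utp3 had 106.1, 112.2 and 107.2 CPM at 12hpf, against 166.8, 166.9 and 160.1 CPM at 6hpf. The replicates were tight and the stages far apart, with log2 fold-changes of -0.65 and -0.63. Also lower was utp15, a subunit of the UTP-A complex that binds the precursor during transcription (-0.63 and -0.69). In the other direction went bysl, which stays with the maturing small subunit until late in assembly. It had 185.5, 183.1 and 154.8 CPM in TALE KD at 12hpf, against 112.2, 111.7 and 100.6 CPM in TALE KD at 6hpf. In control bysl had 188.7, 167.4 and 166.5 CPM at 12hpf, against 104.7, 106.5 and 105.2 CPM at 6hpf. The log2 fold-changes of bysl were 0.66 ± 0.08 and 0.69 ± 0.08 (SE, edgeR p-adj 4.66e-06 and 2.48e-06). Smaller rises past the p-adj threshold were measured in both treatments for wdr36, a UTP-B subunit (0.29 and 0.36), and for nol10 (0.38 and 0.40). The median of the 14 genes was 0.01 in TALE KD and -0.03 in control, and it was 0.24 and 0.21 on library totals.

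No large subunit factor was called lower, but 6 of 14 in TALE KD and 7 of 14 in control passed the p-adj threshold with lower levels and changes below 1.5-fold. They included the helicase ddx18 (-0.54 and -0.44), the GTPase nucleostemin, gnl3 (-0.43 and -0.48), and nop16 (-0.50 and -0.49). The ribosomal RNA methyltransferase nop2 was also among them (-0.20 and -0.17), but its sign turned on library totals, to 0.04 in TALE KD and 0.08 in control. The PeBoW complex, a trimer needed for large subunit maturation, did not move as a unit. Its subunit wdr12 had 109.3, 115.7 and 108.1 CPM in TALE KD at 12hpf, against 66.42, 65.92 and 68.28 CPM in TALE KD at 6hpf. In control wdr12 had 122.9, 124.6 and 119.3 CPM at 12hpf, against 74.01, 73.72 and 72.72 CPM at 6hpf. This was the largest rise among the 42 genes in both treatments, with log2 fold-changes of 0.70 and 0.71. Its partner bop1 had -0.24 and -0.28, and the remaining subunit pes had 0.28 and 0.25, with p-adj above 0.01 by edgeR for both genes in both treatments.

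The RNA polymerase I subunits differed in the same way. The small subunit polr1d, shared with RNA polymerase III, had 37.77, 37.01 and 36.59 CPM in TALE KD at 12hpf, against 52.62, 51.36 and 54.17 CPM in TALE KD at 6hpf. In control polr1d had 33.66, 35.07 and 35.56 CPM at 12hpf, against 56.78, 49.14 and 55.6 CPM at 6hpf. It was called lower in control (-0.66), and it passed the p-adj threshold but not the fold in TALE KD (-0.54). The core subunit polr1b had -0.02 and -0.09, with overlapping stages in both treatments, and polr1c, also shared with RNA polymerase III, had -0.14 and -0.24.

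Nucleolin (ncl) and nucleophosmin (npm1a) are abundant nucleolar proteins that bind ribosomal RNA and chaperone ribosomal proteins. The level of ncl was 3157, 3227 and 2784 CPM in TALE KD at 12hpf, against 4971, 4880 and 5070 CPM in TALE KD at 6hpf. In control ncl had 3062, 3051 and 2782 CPM at 12hpf, against 4548, 5096 and 5500 CPM at 6hpf. Both treatments showed a clear gap between stages, with log2 fold-changes of -0.74 and -0.80. For npm1a the levels were 1776, 1786 and 1618 CPM in TALE KD at 12hpf, against 2582, 2582 and 2698 CPM in TALE KD at 6hpf. In control npm1a had 1801, 1832 and 1750 CPM at 12hpf, against 2782, 2598 and 2599 CPM at 6hpf. The changes of npm1a, -0.63 and -0.60 on the log2 scale, lay close to the threshold of 1.5-fold. The call of npm1a was lost without TALE KD 12hpf replicate 3 in TALE KD (-0.58), and without control 12hpf replicate 3 or control 6hpf replicate 1 in control (as small as -0.56). The regulator mybbp1a went the other way in both treatments, with log2 fold-changes of 0.22 in TALE KD and 0.39 in control (edgeR p-adj 0.116 and 0.00974), and its 12hpf libraries lay above all 6hpf libraries. Leaving out 1 library at a time, the change of mybbp1a in control was 0.23 to 0.51 with edgeR p-adj up to 0.0277, and p-adj stayed at most 0.01 only without TALE KD 12hpf replicate 3 or control 6hpf replicate 3.

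In all, 9 genes were called in the same direction in both treatments, and 26 passed the p-adj threshold in the same direction in both, 21 lower and 5 higher. The stage comparisons in TALE KD and in control share no library, although the fit pools their spread. Both carry the same limit, since each stage was deposited as its own table. The change between stages cannot be told apart from any difference in collection or sequencing between those tables. With TMM factors, signs were opposite for 2 genes, noc2l and heatr1, which are described with the effect of TALE KD. Signs depend on the scale, since library totals alone turned the sign of 8 of the 42 genes in each treatment. Leaving out replicate 3 of both groups at 12hpf reduced the calls in TALE KD to 6, 4 lower and 2 higher, with the calls of rrp9, dkc1, utp15 and npm1a lost. The same 4 calls were lost when TALE KD 12hpf replicate 3 alone was left out, which left 7 calls, with nop14 added.

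**Figure D3:**
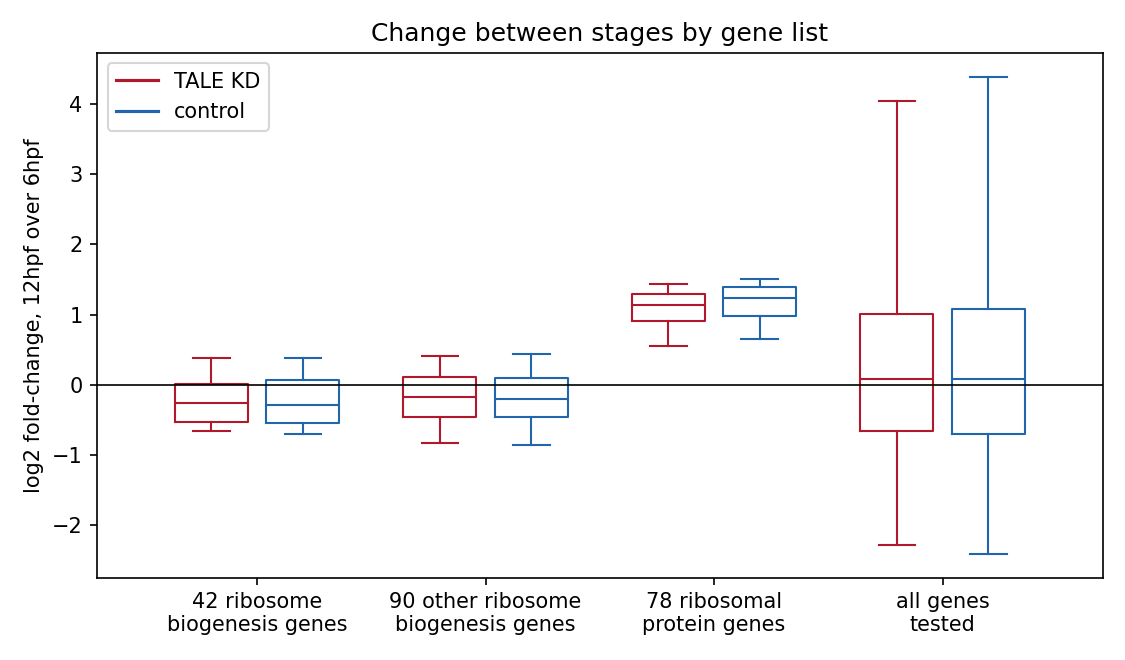
log2 fold-change between stages (y axis, 12hpf over 6hpf with TMM factors) in the 42 genes, 90 other ribosome biogenesis genes, 78 ribosomal protein genes and all genes tested, TALE KD in red and control in blue. Boxes span the quartiles with the median as a line, and whiskers reach the 5 and 95 percentiles. The ribosomal protein boxes lie above 0, around medians of 1.15 and 1.24, and those of both biogenesis lists have medians below 0.

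With TMM factors, other ribosome biogenesis genes outside the list behaved alike. Of 90 such genes, 14 were called lower and 4 higher in TALE KD, and 18 lower and 3 higher in control, with medians of -0.17 and -0.20. That is 15.6% lower and 4.44% higher in TALE KD, where all genes gave 25.1% and 31.5%. In control it is 20% and 3.33%, where all genes gave 26.0% and 32.8%. The medians of the 90 genes were taken with TMM factors only and depend on the scale too. Library totals moved the median of all genes from 0.09 to 0.32 in TALE KD, and from 0.09 to 0.33 in control. That shift is larger than the distance of the medians of the 90 genes from 0, so the sign of these medians depends on the scale. The largest falls were those of krr1, a small subunit factor (-1.56 in TALE KD and -1.57 in control), of dimt1l, a ribosomal RNA dimethyltransferase (-1.63 and -1.44), and of ubtf, the RNA polymerase I transcription factor (-1.45 and -1.47). The largest rises were those of urb2 (0.83 and 0.96), of the exosome subunit exosc2 (0.88 and 0.80), and of the helicase dhx37 (0.67 and 0.72). All 6 kept their calls on library totals. With the same factors, the cytosolic ribosomal protein genes, whose products the assembly factors load, had medians on the other side of 0. Of 78, 73 were called higher at 12hpf in TALE KD and 74 in control, and none lower, with medians of 1.15 and 1.24. That is 93.6% and 94.9% called higher, where all genes gave 31.5% and 32.8%. Their share of all counts was 8.46 to 8.81% in TALE KD at 12hpf, against 3.30 to 3.43% in TALE KD at 6hpf, and 9.05 to 9.48% in control at 12hpf, against 3.24 to 3.57% in control at 6hpf. A list that gains so many counts lowers the share left to other genes, and its part in the lower share of the 42 genes was not tested.

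Members of the Myc family, transcription factors known to drive ribosome biogenesis genes in vertebrates, did not move together. Of the 8 genes measured, mycn (1.59 in TALE KD and 1.73 in control), mycb (1.87 and 2.03) and myca (3.35 and 4.34) were called higher at 12hpf. In the other direction, mych (-1.58 and -1.29), mycla (-1.34 and -1.36) and max (-0.95 and -0.84), which encodes the shared dimer partner, were called lower. That is 37.5% in each direction in both treatments. All genes gave 31.5% higher and 25.1% lower in TALE KD, and 32.8% and 26.0% in control. At 6hpf 7 of the 8 genes passed the count filter and myca did not, so its rise starts from low counts.

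TALE KD left the ribosome biogenesis genes as a group close to control. At 12hpf the median log2 fold-change, TALE KD over control, was -0.02 over the 42 genes and -0.003 over all 11640 genes tested, and 38 of the 42 genes lay within 0.2 of 0. The summed level in TALE KD was 0.982 times that in control. Of the 42 genes, 1, noc2l, was called lower and none higher, where 1.26% of all genes were called lower and 0.292% higher. The count over all genes depended on the libraries used, with 181 genes called over all 6 libraries. It was 729 when replicate 3 of both groups was left out, 472 when only that of TALE KD was, 148 when only that of control was, and 20 to 47 when replicate 1 or 2 of either group was removed. Of the 42 genes, 1 was called in each of the first 4 of these settings and none in the others. With no minimum fold-change 2 genes, noc2l and tbl3, were lower, which is 4.76% of the genes, where all genes gave 2.09%. TALE KD libraries lay below all control libraries for 13 genes and above them for 5, which is 31% and 11.9% of the genes, where the background was 16.3% in each direction. The 42 genes varied less between replicates than genes in general. Their median coefficient of variation (CV) at 12hpf was 3.91% in TALE KD and 3.14% in control, against 7.97% and 7.1% over all genes. Small changes separate such genes more easily, which limits each comparison of these shares with all genes.

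The gene called lower, noc2l, encodes a nucleolar factor that works with noc3l in large subunit assembly, and the human protein is also described as an inhibitor of histone acetyltransferases. It had 135.9, 135 and 170.5 CPM in TALE KD at 12hpf, against 239.5, 250.4 and 231.1 CPM in control at 12hpf. At 6hpf it had 167.1, 169.7 and 180.2 CPM in TALE KD, against 200.4, 186.9 and 196.7 CPM in control. TALE KD was below control without overlap at both stages, and TALE KD 12hpf replicate 3 lay nearest to control. The log2 fold-change at 12hpf was -0.71 ± 0.09 (SE, edgeR p-adj 0.00376, n = 3 per group), with p-adj of 4.45e-05 when the replicate number was a block. The call was lost without control replicate 1 or 2 or TALE KD replicate 1 or 2 (edgeR p-adj 0.0208 to 0.0266, log2 fold-change -0.72 to -0.65). Without TALE KD replicate 3 the change was -0.84 and p-adj 7.77e-05 by edgeR. At 6hpf the change was -0.16 ± 0.07 (SE, edgeR p-adj 0.872). Its partner noc3l had 105.1, 116.1 and 105.4 CPM in TALE KD at 12hpf, against 109.3, 111 and 100.1 CPM in control at 12hpf, with overlapping groups.

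A smaller change was that of tbl3, a UTP-B subunit of the small subunit processome. It had 150.2, 156 and 151.8 CPM in TALE KD at 12hpf, against 218.9, 211.6 and 206 CPM in control at 12hpf, and 144.6, 123.6 and 121.6 CPM in TALE KD at 6hpf, against 156, 167.9 and 161.2 CPM in control at 6hpf. The groups did not overlap at either stage. At 12hpf tbl3 fell by 0.48 on the log2 scale with an SE of 0.04 (edgeR p-adj 0.0013), short of 1.5-fold. Its p-adj was above 0.01 without control replicate 1 or 2 or TALE KD replicate 1 or 2 (edgeR p-adj 0.011 to 0.0134), with the log2 fold-change between -0.50 and -0.46. For tbl3 at 6hpf the change was -0.30 ± 0.09 (SE, edgeR p-adj 0.487). Another UTP-B subunit, pwp2h, which is not one of the 42 genes, was the only other ribosome biogenesis gene called at 12hpf among the 90. Its levels were 67.28, 73.76 and 100.6 CPM in TALE KD at 12hpf, against 150.4, 152.5 and 154.5 CPM in control at 12hpf, with a log2 fold-change of -0.92 ± 0.13 (SE, edgeR p-adj 0.00575). TALE KD replicate 3 was again nearest to control, and of the 6 libraries only its removal kept the call of pwp2h (edgeR p-adj up to 0.0392 without another). The call was also lost on library totals (edgeR p-adj 0.0111). The UTP-B subunit wdr36 had -0.07 ± 0.04 at 12hpf (SE, edgeR p-adj 0.313).

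With the replicate number as a block, mybbp1a and heatr1 also passed the p-adj threshold at 12hpf. Without a block, both passed it by DESeq2 as well (p-adj 0.00162 and 0.000446). The same held by edgeR when replicate 3 of both groups was left out (p-adj 1.1e-05 and 0.000202). Many more genes pass in these settings. With the 1.5-fold minimum, DESeq2 called 326 of all genes and edgeR without replicate 3 called 729, against 181 in the main fit. The replicates left after that removal were the closest to each other in each group. The shares of all genes that pass p-adj alone in these settings are not given here. The level of mybbp1a, whose product binds the Myb oncoprotein and takes part in ribosomal RNA processing, was 259.3, 285.7 and 303.1 CPM in TALE KD at 12hpf, against 341.4, 332.6 and 355.1 CPM in control at 12hpf. All TALE KD libraries were lower, with a log2 fold-change of -0.29 (edgeR p-adj 0.0266, and 0.00087 with the block). The gene heatr1, a UTP-A subunit, had 206.4, 232.4 and 230.3 CPM in TALE KD at 12hpf, against 188, 178 and 182.8 CPM in control at 12hpf. All TALE KD libraries were higher, with a log2 fold-change of 0.28 (edgeR p-adj 0.0206, and 0.00227 with the block). The share of all genes that passed with the block was 8.15% for lower and 5.56% for higher. Of the 42 genes, 3 were lower and 1 higher, a smaller share than over all genes in each direction.

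The remaining genes whose TALE KD libraries lay apart from control at 12hpf had small changes. Lower without overlap were wdr43 (-0.15), wdr12 (-0.15), ddx18 (-0.14), nhp2 (-0.11), nop10 (-0.11), tsr1 (-0.11), gnl2 (-0.10), nop58 (-0.09), dkc1 (-0.08) and wdr36 (-0.07). Higher without overlap were rrp9 (0.14), polr1d (0.09), ebna1bp2 (0.08) and nop56 (0.07), beside heatr1. By edgeR none of these passed p-adj 0.01, also with the block included.

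**Figure D4:**
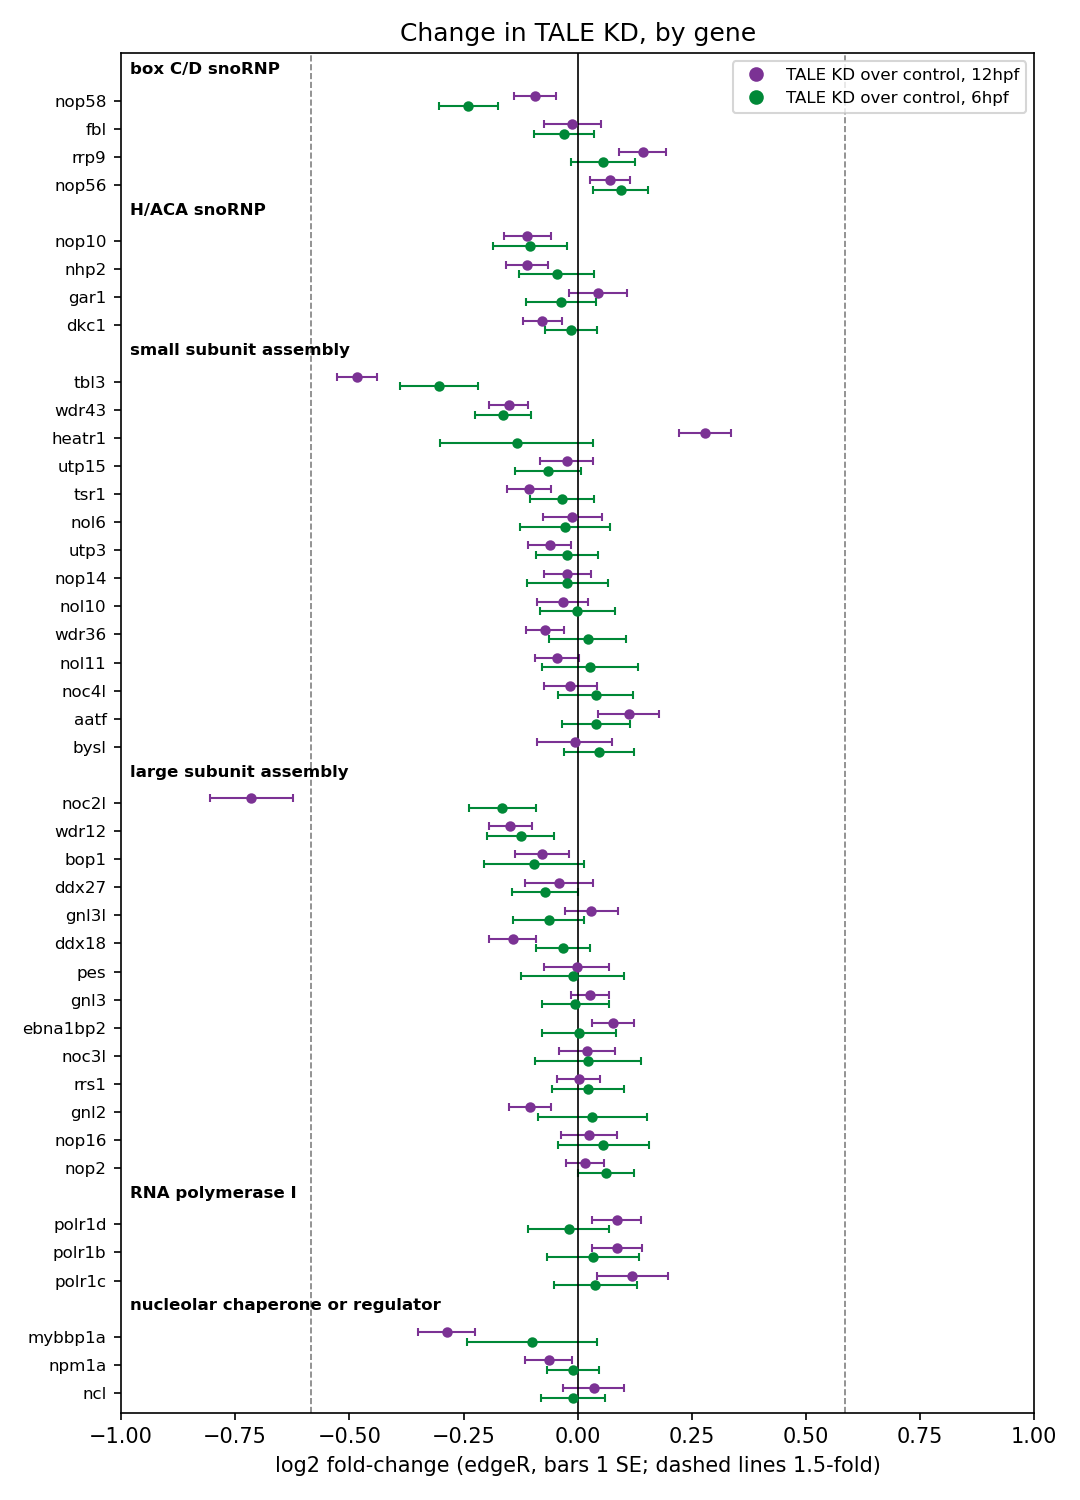
log2 fold-change of each gene in TALE KD over control (x axis, bars 1 SE), with genes on the y axis grouped by role, 12hpf in purple and 6hpf in green. Most genes lie within 0.2 of 0 at both stages, and noc2l at 12hpf is the only point past the dashed line for 1.5-fold.

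At 6hpf none of the 42 genes was called by edgeR in TALE KD, with or without the block, or by DESeq2, where 0.0392% of 10202 genes were called. At an unadjusted p under 0.05, 4 genes were lower and none higher, which is 9.52% of the genes against 3.46% of all genes lower. They were tbl3 and noc2l, given above, nop58 and wdr43. The median was -0.02 over the 42 genes and 0.01 over all genes. The scaffold protein nop58 had 736, 724.3 and 788.3 CPM in TALE KD at 6hpf, against 876.5, 871.7 and 927.1 CPM in control at 6hpf. The groups were well separated, with a log2 fold-change of -0.24 ± 0.06 (SE, edgeR p-adj 0.429), while its partners nop56 (0.09) and fbl (-0.03) overlapped. For wdr43, a UTP-A subunit, the levels were 467.9, 473.4 and 476.4 CPM in TALE KD at 6hpf, against 519.3, 527 and 553 CPM in control at 6hpf. The groups did not overlap, with a log2 fold-change of -0.16. At 12hpf wdr43 had 383.8, 376.7 and 384 CPM in TALE KD, against 411.8, 418.9 and 433.1 CPM in control, again without overlap.

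TALE KD libraries lay below all control libraries at 6hpf for 6 of the 42 genes, which is 14.3% where the background was 6.57%, and above them for 1 gene, nop2, which is 2.38% where the background was 4.50%. All 6, namely tbl3, nop58, noc2l, wdr43, wdr12 and ddx18, were also below control without overlap at 12hpf, where they made up 46.2% of the 13 genes. Over the 9979 genes tested at both stages, 39.4% of the 660 genes below control at 6hpf were also below it at 12hpf, and these made up 17.4% of the 1490 genes below control at 12hpf. The limit from spread applies here too. At 6hpf the median CV of the 42 genes was 3.99% in TALE KD and 6.03% in control, against 11.4% and 12.5% over all genes.

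**Figure D5:**
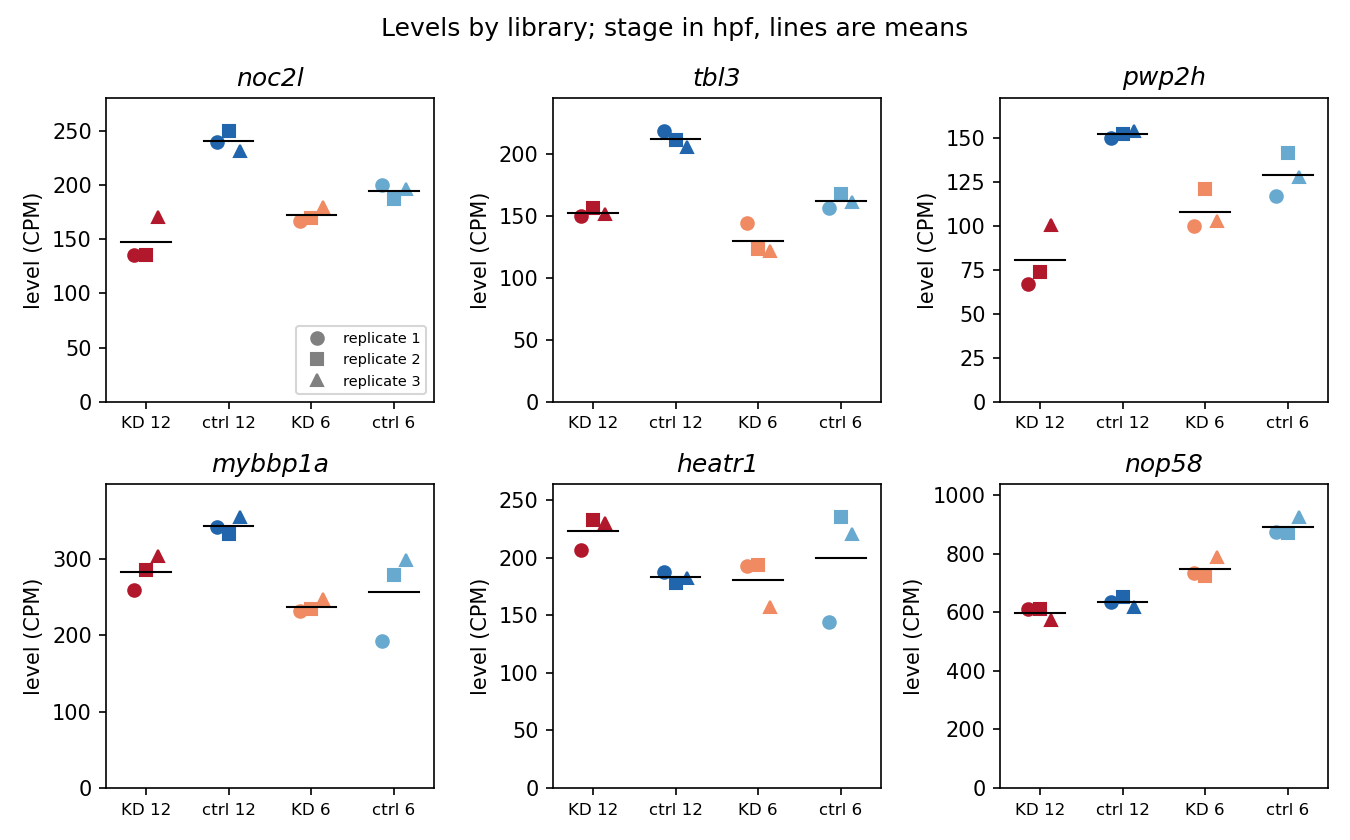
Levels (y axes, CPM with TMM factors, from 0) of noc2l, tbl3, pwp2h, mybbp1a, heatr1 and nop58 in each library, by group on the x axes (KD for TALE KD, ctrl for control, stage in hpf), with a marker shape per replicate number and a line at each group mean. For noc2l, tbl3, pwp2h and mybbp1a all TALE KD libraries at 12hpf lie below all control libraries at 12hpf.

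No gene passed the test of whether the effect of TALE KD differed between stages, where 0.0349% of 11450 genes did. At an unadjusted p under 0.05 there were 2 genes, noc2l and heatr1, where the background was 8.67%. For noc2l the difference was -0.54 ± 0.12 on the log2 scale (SE, edgeR p-adj 0.129, and 0.0335 with the block), and DESeq2 called it with p-adj 0.00983. Without TALE KD 12hpf replicate 3 it was also called (-0.66, edgeR p-adj 0.00655). Between stages, with TMM factors, noc2l was higher at 12hpf in control by 0.27 (edgeR p-adj 0.00889, and up to 0.0371 when 1 library was left out), without overlap. In TALE KD it had -0.26 on the same scale (edgeR p-adj 0.0126), with overlapping stages. For heatr1 the difference was 0.43 ± 0.20 (SE, edgeR p-adj 0.575). Its control levels at 6hpf were 144.3, 235.6 and 220.6 CPM, the widest relative spread among the 42 genes in that group (CV 24.5%, where the median of the 42 genes was 6.03%), and control 6hpf replicate 1 stood apart. The same library was the lowest for mybbp1a, with 192.7 CPM against 278.5 and 298.3 CPM.

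The p53 response and the stage markers were measured in the same comparison. All 12 measured p53 response genes at 12hpf had log2 fold-changes above 0, with a median of 0.53, where 49.3% of all genes lay above 0. Of the 12, 1 was called higher, the cell death gene bbc3 (2.09, edgeR p-adj 0.0087), where 0.292% of all genes were. When single libraries were left out, this call was kept only without TALE KD replicate 3 (edgeR p-adj up to 0.0468). With the block 7 of the 12 passed the p-adj threshold with higher levels, where 5.56% of all genes did. The cell cycle inhibitor cdkn1a had 38.06, 43.72 and 19.74 CPM in TALE KD at 12hpf, against 7.24, 8.26 and 12.73 CPM in control at 12hpf, so that replicate 3 of the 2 groups lay closest together. At 6hpf the median of the list was -0.10 with none called by edgeR. At an unadjusted edgeR p under 0.05, 2 of the 12 genes were lower, where 3.46% of all genes were. Of the stage markers in TALE KD over control at 12hpf, 8 of 8 tested gastrula markers lay above 0, with a median of 0.38. None was called by edgeR without the block. With the block 5 of the 8 passed the p-adj threshold with higher levels, where 5.56% of all genes did, and 3 were called, where 0.782% of all genes were. At an unadjusted edgeR p under 0.05, 7 of the 8 were higher, where 12.6% of all genes were. Of 7 tested segmentation markers 6 lay below 0, with a median of -0.47. The 2 called lower by edgeR without the block were the hindbrain gene egr2b and the muscle gene myog, where 1.26% of all genes were called lower. With the block 5 of the 7 passed the p-adj threshold with lower levels, where 8.15% of all genes did. The study names egr2b among known Pbx-dependent genes that fell in TALE KD, and cites Pbx binding at the myogenin locus. For egr2b and myog, stage and loss of TALE factors cannot be told apart. The part of the p53 response and of the stage markers in the changes of noc2l, tbl3 and pwp2h was not tested. The ribosomal protein genes at 12hpf had a median of -0.07 in TALE KD over control, with 75 of 78 below 0. Of all 11640 genes tested, 5899 lay below 0. Among the 78, rps27.1 was called lower (-0.71) and none was called higher, where 1.26% of all genes were called lower and 0.292% higher. That call was lost without replicate 1 or 2 of either group (edgeR p-adj up to 0.0186).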

How the data were processed

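Per the labels, RNA came from pools of whole embryos. The submitters' processing notes name FastQC, RSEM 1.2.28, DESeq2 and the zebrafish builds GRCz10 and danRer10. The deposited values are estimated counts per gene made by the authors with RSEM, not normalized, in 1 table per stage, and all 12 columns were mapped to samples by name. The names of the deposited tables speak of TPM, but their library totals range from 11884805 to 40924982, so the values were treated as estimated counts. RSEM splits reads shared by similar genes, and each of the 42 genes held a fractional count in at least 1 library (tolerance 0.005).

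Counts were rounded, and edgeR 4.0.16 (TMM, glmQLFit, glmQLFTest, R 4.3.3, Benjamini-Hochberg) was run on genes whose mean count in a fit reached 10. TALE KD was compared with control in the 6 libraries of a stage. Stages, and the difference in TALE KD effect, were compared in 1 fit of 12 libraries. An SE is the log2 fold-change over the root of its F. The threshold was p-adj at most 0.01 and 1.5-fold, without the fold for the difference.

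Within a stage, deviations from the group mean correlated between TALE KD and control libraries of the same number (r 0.294 to 0.542 at 12hpf and 0.234 to 0.345 at 6hpf). The numbers were therefore taken as pairs in the replicate block, an alternative to the main fit, which had no block. The evidence for pairs is these correlations only. At 12hpf r was 0.249 and 0.231 between numbers 1 and 2, near the 0.294 and 0.315 within them. Across stages it was -0.08 to 0.01 for the same number. Replicates differed beyond sampling noise (chi-square per degree of freedom 2.68 to 24.6). At 12hpf this value was 2.68 in control and 3.19 in TALE KD between replicates 1 and 2. Between replicate 3 and these it was 13 and 13.5 in control, and 18.4 and 24.6 in TALE KD. The study's methods left out an outlying replicate at 12hpf without naming it, and all 12 libraries were kept here. On simulated counts edgeR recovered 178 of 196 changed genes at 12hpf, 186 of 196 at 6hpf, 186 of 196 between stages and 167 of 195 for the difference. Genes called without a planted change numbered 0 at 12hpf, 0 at 6hpf, 2 between stages and 4 for the difference. All planted changes were larger than 1.5-fold, with the same spread setting for every gene and no replicate effect. The recovery of smaller changes, or with the spread of the real replicates, was not tested.

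Alternatives were DESeq2 1.42.0, library totals, RLE factors, other filters and thresholds, the block, and fewer libraries. The 42 genes and the other lists (other ribosome biogenesis, ribosomal protein, Myc family, p53 response, stage markers) were chosen with earlier results of these data known. Any of the 42 genes could be named, and from other lists the called genes, up to 4 per direction, all Myc and p53 genes and the morpholino targets. Promoter sequences were not analysed here.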

Additional observations from a re-analysis of the deposited data

Results flagged for a closer look

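The effect of TALE KD on noc2l differed between stages by -0.535 on the log2 scale (12hpf minus 6hpf). It is listed because DESeq2's test of the difference, 1 of the alternatives run, passed the threshold with p-adj 0.00983, while edgeR gave p-adj 0.129. Over the alternatives that keep all libraries, edgeR p-adj was 0.0335 to 0.165, and over removals of 1 library it was 0.00655 to 0.383, with a difference of -0.66 to -0.48. TALE KD was below control in all 3 libraries of each stage. Groups of 3 libraries were not tested for single outlying libraries.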

How the results depend on the processing

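Library totals in place of TMM factors moved the stage results. The median of the 42 genes became -0.0469 in control and -0.0229 in TALE KD, the calls in TALE KD fell to 5, and the summed level became 14946 CPM in TALE KD 12hpf, 15271 in control 12hpf, 17241 in TALE KD 6hpf and 17622 in control 6hpf. On the same scale nop2 turned to 0.0756 in control and 0.0392 in TALE KD, and ebna1bp2 to 0.0257 in TALE KD. Without a filter on low counts the stage median was -0.226 in TALE KD and -0.260 in control. Without a minimum fold-change, calls were 2 for TALE KD over control at 12hpf, 26 for the stages in TALE KD and 31 in control. Leaving out replicate 3 of both groups at 12hpf gave 6 stage calls in TALE KD, a stage median of -0.259 in control and 1 call, noc2l, for the difference of the TALE KD effect between stages, which DESeq2 also called (1). The cause of these moves was not tested, except that library totals shift all genes alike.

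Leaving out 1 library at a time gave 0 or 1 call for TALE KD over control at 12hpf, 0 at 6hpf, 0 or 1 for the difference, 7 to 11 between stages in TALE KD and 10 to 11 in control. The medians ranged from -0.0418 to 0.0188 at 12hpf, from -0.0434 to -0.00078 at 6hpf, from -0.022 to 0.0252 for the difference, from -0.284 to -0.231 between stages in TALE KD and from -0.309 to -0.252 in control.

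The replicate block is the fit that takes the pairing found within a stage into account. With the replicate block 1 gene, noc2l, was called at 12hpf (TALE KD over control), 0 at 6hpf, 0 for the difference, and 10 between stages in each treatment. It changed no call of the 42 genes at the 1.5-fold threshold. Replicate numbers did not pair libraries across stages, so the block has no basis there. The SE limits what can be said of small changes. Its median over the 42 genes was 0.05 for TALE KD over control at 12hpf, 0.08 at 6hpf and 0.07 between stages on the log2 scale. It holds the spread between replicates as well as counting error. With 3 libraries per group, a change below 1.5-fold at 6hpf may not have been detectable. Counting error aside, fractional counts from shared reads were not resolved, and gene lengths were not used.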
